A study of Mus musculus with 18 samples.

Results

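Tumors grown in mice from H3.3K36M cells were compared with cultured cells that carry wild-type H3.3, and each difference already present between the 2 cultured lines was followed into the tumors. The comparison took the 6 libraries labelled as H3.3K36M tumors and the 2 labelled as H3.3 WT, which makes 8 of the 18 RNA-seq libraries of the series, and the 2 H3.3K36M cell libraries gave the culture difference. All 3 groups go back to C3H10T1/2, an embryonic mesenchymal line of the C3H mouse strain with several possible fates, among them chondrocytes and adipocytes, and all of them stably express an H3.3 with a FLAG-HA tag, either wild-type or with lysine 36 changed to methionine. Cultured cells were at passage 10 to 15. For the tumors, 2000000 H3.3K36M cells in Matrigel were placed under the skin of both flanks of female athymic SCID mice of 6 to 8 weeks, and the tumors were taken after 5 to 6 weeks. Each line is a single line, no wild-type tumor was analysed here, and the labels do not say which tumors share a mouse or whether libraries of a cell line were separate cultures. Any p-value here is thus set by how much the sequenced libraries varied, possibly for technical reasons, and growth in the animal, the mutation and the host's own cells cannot be told apart in the tumors against wild-type cells. Host and injected cells are both mouse, so their transcripts are counted together.

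Histone H3.3 is the H3 variant that is placed into chromatin outside DNA replication. Lysine 36 of H3 is methylated by enzymes that include Nsd1, Nsd2 (listed as Whsc1) and Setd2, and the K36M form is known to block such enzymes and to occur in chondroblastoma, a bone tumor of cartilage-like cells. C3H10T1/2 cells carry a mesenchymal program of collagens, proteoglycans and Sox factors.

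Levels are estimated counts per gene that the authors scaled between libraries, and they are not corrected for gene length. Genes with a value of at least 10 in at least 2 of the 10 libraries were tested, which left 14965 of 20325. Fold changes are differences of log2(value + 1), with a standard error (SE), and adjusted p-values come from limma with Benjamini-Hochberg adjustment over all tested genes. A gene rose or fell where the adjusted p was under 0.05. Where both wild-type libraries are listed at 0 no fold is given, and where they are near 0 the fold depends on the added 1. The libraries held 23343297 to 56041798 estimated reads each. A single estimated read was worth between 0.578 and 1.44 in the scaled values, so levels under about 10 rest on few reads. The median SD between tumors was 0.243 on the log2 scale, against 0.0459 between wild-type and 0.0562 between H3.3K36M libraries. Tumor 6 stood apart: its median absolute log2 distance from the wild-type mean was 0.879, against 1.15 to 1.19 in the other tumors. Results without tumor 6 are given beside the counts below.

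Tumors differed from wild-type cells at a larger share of genes than the cultured mutant line did, with 6 libraries in place of 2. In tumors 4499 genes were at least 2-fold higher (30.1% of those tested) and 3278 at least 2-fold lower (21.9%). H3.3K36M cells differed from the same wild-type libraries by that measure at 1748 genes upward (11.7%) and 1009 downward (6.74%), and without the fold limit at 18.8% and 14.6% of genes. The fit took 1 spread per gene from all 10 libraries, so scatter between tumors also decided which culture differences passed. Fbn2, at 7392 and 7463 in wild-type and 768 and 774 in mutant cells, did not (adjusted p = 0.0978). A weight for each group gave 2183 upward and 1245 downward in culture, and separate fits 1684 and 1152. Without the fold limit, 6604 genes rose (44.1%) and 5338 fell (35.7%) in tumors, so a share near these values over a gene list is the background. Quantile normalisation turned the split over, to 3323 higher and 4253 lower, and moved the median of all genes from 0.19 to -0.12 on the log2 scale. A filter on the cultured libraries left 13248 genes, of which 3043 were at least 2-fold higher and 3282 lower in tumors.

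Most differences of the mutant line were still present after growth in the animal. A culture difference was called kept where tumors differed from wild-type cells in the same direction at 2-fold or more. It was called lost where tumors lay within 2-fold of wild-type and had moved back from the mutant line past the test of tumors against the mutant line (41.6% of all genes higher and 35.1% lower in tumors, 26.5% and 20.9% at 2-fold or more), and turned over where tumors lay 2-fold or more on the other side of wild-type. Of the 1009 culture falls, 663 (65.7%) were kept, 179 (17.7%) were lost, 133 (13.2%) turned into rises and 34 fell in none of these classes. Of the 1748 culture rises, 1303 (74.5%) were kept, 296 (16.9%) were lost, 70 (4.00%) turned into falls and 79 fell in none. Some culture rises passed the filter on low values only through the tumors, which favours a kept rise. With a filter on the cultured libraries 1046 of 1492 culture rises and 667 of 973 culture falls were kept. Both comparisons use the same 2 wild-type libraries, which by itself favours the same direction, so the shares are a description with no test. Under quantile normalisation 681 of 1200 culture rises were kept and 203 falls and 181 rises turned over, and with a pseudocount of 10 the kept rises numbered 795 of 1335 and the falls turned over 73.

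The classes differed in how far the tumors went. Kept falls had a median log2 difference from wild-type of -2.01 in culture and -2.84 in tumors, and kept rises of 2.45 in culture and 4.21 in tumors. Among kept rises 268 had both wild-type libraries listed at 0, and without them the tumor median was 3.91. Split after the values were seen, 738 kept rises were at least 2-fold further from wild-type in tumors than in the mutant line, 138 were at least 2-fold nearer and 427 were neither. The same split gave 247 further, 68 nearer and 348 neither for the kept falls. Lost falls sat at a median of -0.26 in tumors, and lost rises at 0.15.

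Each tumor gave nearly the same shares when it was read alone. The culture calls used the spread between tumors too, so genes that varied between tumors were less likely to be included. Between 64.7% and 67.4% of the culture falls were still 2-fold or more below the wild-type mean in a single tumor, and between 75.3% and 79.5% of the culture rises were still above it. Tumor 6 held the highest share of rises and the lowest share of falls. Without tumor 6, 711 of 1100 culture falls and 1396 of 1907 culture rises were kept, 204 and 338 were lost, and 153 and 98 turned over. The count of rises turned into falls dropped to 37 and 34 without wild-type library 1 or 2, and to 34 without H3.3K36M cell library 1 or 2. Lost rises dropped to 147 and 149 without H3.3K36M cell library 1 or 2.

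**Figure D1:**
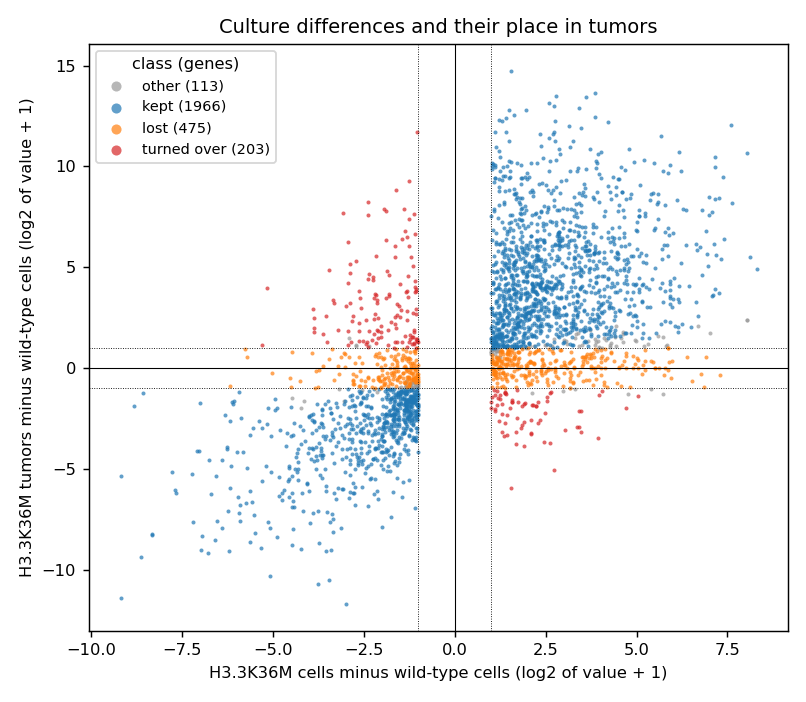
Each point is a gene with a culture difference, placed by its log2 difference from wild-type cells in H3.3K36M cells (horizontal axis) and in tumors (vertical axis), with dotted lines at 2-fold. Most points lie in the corners of equal direction (663 falls and 1303 rises kept), while lost genes form the band around 0 and turned-over genes the other 2 corners.

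**Figure D2:**
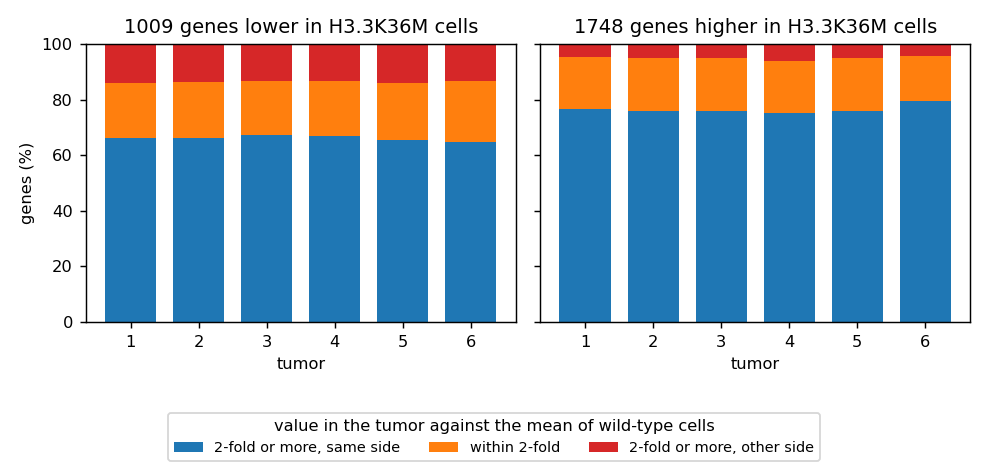
Bars give, for each of the 6 tumors, the percentage of the 1009 genes lower and the 1748 genes higher in H3.3K36M cells that stay 2-fold or more on the same side of the wild-type mean, lie within 2-fold of it, or pass to the other side. The bars are nearly level across tumors, between 64.7% and 67.4% on the same side for the falls and between 75.3% and 79.5% for the rises.

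Cartilage genes held the clearest kept falls. Of 24 tested cartilage matrix genes 19 fell in tumors and 1 rose, with a median log2 difference of -3.19, against 0.19 over all genes tested. The mutant line had 20 falls in this list with a median of -3.78, and 18 of them were kept, 1 was lost and 1 fell in no class. In bulk RNA, fewer cells of a type and less RNA per cell cannot be told apart.

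Col2a1, the type II collagen of cartilage, stood at 101204 and 98769 in the wild-type libraries, at 8839.9 and 8265 in the mutant cells and at 127 to 284 (median 195) in tumors. The 3 groups did not overlap, and tumors lay furthest from wild-type (log2 -9.07 ± 0.27 SE, adjusted p = 4.54e-10), also below the mutant line (log2 -5.53 ± 0.27 SE, adjusted p = 3.37e-08). Col11a1, a fibril collagen that goes with it, went from 50164 and 51753 through 3638 and 3894 to 14.2 to 84.9 (median 30.3), the same order with no overlap (log2 -10.67 ± 0.51 SE, adjusted p = 1.83e-08). Acan, the large proteoglycan aggrecan, was already almost gone in the mutant line, at 2.31 and 0 against 582 and 578, and ranged from 0 to 5.36 (median 0.452) in tumors. Tumors and mutant cells overlapped for Acan, and both lay far below wild-type (log2 -8.22 ± 0.82 SE, adjusted p = 5.51e-06 in tumors). Cytl1, a small secreted protein of chondrocytes, showed the same pattern, with 5432 and 5628 in wild-type, 11.6 and 14.4 in mutant cells and 0 to 28.6 (median 14.1) in tumors (log2 -9.33 ± 1.13 SE, adjusted p = 2.48e-05).

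Other matrix members, chosen here after their values were seen, came back in part or fully. Col27a1, a fibrillar collagen of cartilage, had 12598 and 13801 in wild-type and 378 and 375 in mutant cells, and tumors reached 2956 to 3909 (median 3418). All tumors were above both mutant libraries (log2 3.18 ± 0.12 SE, adjusted p = 3.11e-09) and below both wild-type libraries (log2 -1.95 ± 0.12 SE, adjusted p = 1.06e-07). Col10a1, the collagen of hypertrophic cartilage, was the lost member: it had 365 and 361 in wild-type, 31.2 and 19.9 in mutant cells and 239 to 737 (median 299) in tumors, which spanned the wild-type values. The single riser was Cilp, a protein of the cartilage interlayer, at 1.34 and 5.78 in wild-type, 6.36 and 5.70 in mutant cells and 939 to 2148 (median 1076) in tumors. Cilp passed the filter on low values only through the tumors, which favours its direction there.

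Among 13 tested transcription factors and growth plate signals, 8 fell and 2 rose in tumors, with a median of -1.63, and 7 of 10 culture falls were kept. Sox9, the master factor of the lineage, had 15948 and 16689, then 2388 and 2273 in mutant cells and 1065 to 1527 (median 1281) in tumors, with no overlap between the groups (log2 -3.67 ± 0.11 SE, adjusted p = 5.65e-10). Sox6, which acts beside it, went from 3042 and 3346 to 26.0 and 30.4 and to 1.34 to 19.5 (median 4.62) (log2 -9.16 ± 0.74 SE, adjusted p = 1.11e-06). Pth1r, the receptor for parathyroid hormone and its related peptide, stayed low, with 1161 and 1122 in wild-type, 89.0 and 89.2 in mutant cells and 32.4 to 117 (median 73.1) in tumors. Tumors spanned the mutant values and lay below wild-type (log2 -4.09 ± 0.39 SE, adjusted p = 3.64e-06). Against the list, Mef2c, a factor of hypertrophic cartilage that is also used in muscle and myeloid cells, was lost as a fall: 865 and 817 in wild-type, 95.4 and 110.1 in mutant cells and 1259.9 to 1570.5 (median 1384) in tumors.

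Angptl1, a secreted angiopoietin-like protein, and Zcchc5, a gene derived from a retrotransposon gag, were kept falls outside the cartilage lists. Angptl1 had 579.8 and 686 in wild-type and 0 and 2.85 in mutant cells, and ranged from 0 to 14.9 (median 0.335) in tumors, where tumor 6 held the highest value (log2 -8.27 ± 1.02 SE, adjusted p = 2.7e-05). Zcchc5 had 1071 and 1050.4, 5.20 and 7.59 and 1.81 to 12.6 (median 3.56) in the same order (log2 -7.64 ± 0.59 SE, adjusted p = 7.64e-07). For both genes tumors and mutant cells overlapped and neither overlapped wild-type cells.

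**Figure D3:**
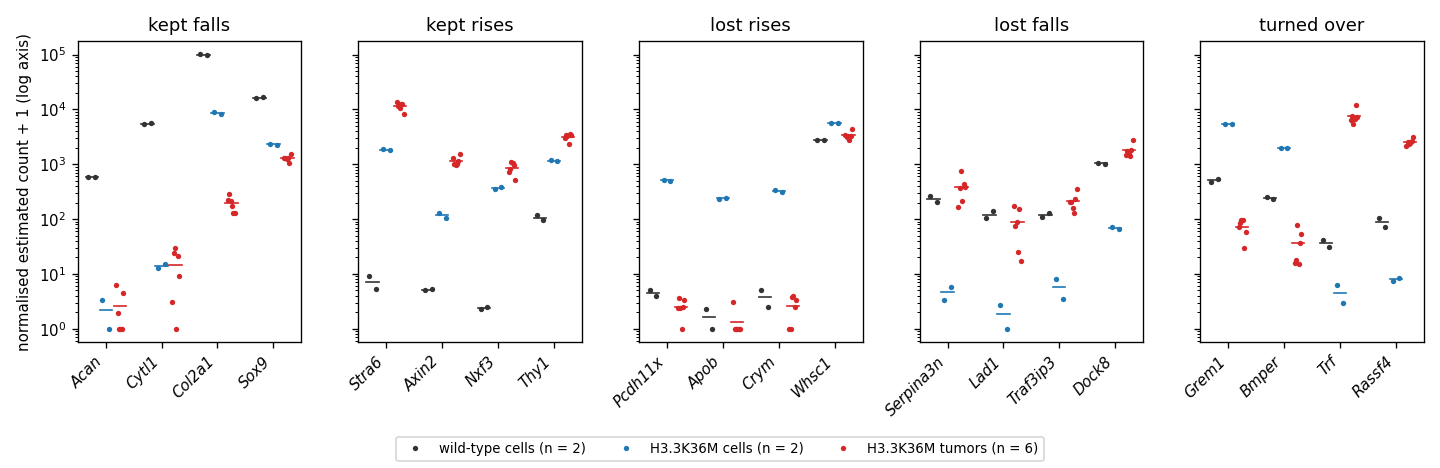
Normalised estimated count plus 1, on a log axis, in every library (points; 2 wild-type, 2 H3.3K36M cell and 6 tumor libraries) with group means as bars, for genes of the classes named above each panel. Kept genes stay on one side of wild-type in tumors, lost genes lie within 2-fold of it on average (Dock8 and Traf3ip3 above it in every tumor, Lad1 well below it in tumors 4 and 6), and Grem1, Bmper, Trf and Rassf4 pass to the other side of it.

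Kept rises were led by genes that were near 0 in wild-type cells. Stra6, the receptor for retinol uptake, had 8.02 and 4.33 in wild-type, 1862 and 1801 in mutant cells and 8269 to 13471 (median 12007) in tumors. The groups did not overlap and tumors were highest (log2 10.67 ± 0.21 SE, adjusted p = 2.47e-11 against wild-type and log2 2.63 ± 0.21 SE, adjusted p = 1.4e-06 against the mutant line). Nxf3, a member of the RNA export factor family, had 1.34 and 1.44, 353 and 378 and 525 to 1114 (median 905), again in that order with no overlap (log2 8.46 ± 0.26 SE, adjusted p = 4.72e-10). Fcgbp, an IgG-binding secreted protein, had 1.34 and 0 in wild-type, 302 and 294 in mutant cells and 126 to 1449 (median 527) in tumors, which spanned the mutant values (log2 8.18 ± 0.87 SE, adjusted p = 8.8e-06). F13a1, the catalytic chain of clotting factor XIII and also a product of macrophages, had 1.34 and 0, 289.5 and 303 and 4330.0 to 9539 (median 7046), with tumors far above both cultured lines (log2 12.08 ± 0.35 SE, adjusted p = 3.55e-10); the part of host macrophages in it was not tested. Thy1, a surface protein of fibroblasts and other cells, was kept too, at 116 and 93.8, 1173 and 1163 and 2344 to 3629 (median 3304) (log2 4.89 ± 0.16 SE, adjusted p = 7.3e-10).

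Wnt genes moved in both directions. Wnt ligands signal through Frizzled and Lrp receptors, and cells answer by raising feedback inhibitors such as Axin2. Of 30 tested ligands, receptors and targets 11 rose and 15 fell in tumors, with a median of -0.96. Of their 9 culture rises 8 were kept and 1 turned over, and of 7 culture falls 5 were kept, 1 was lost and 1 fell in no class. Axin2, the feedback target, had 4.01 and 4.33 in wild-type, 128 and 104 in mutant cells and 955 to 1510.4 (median 1082) in tumors, a rise in 2 steps with no overlap (log2 7.78 ± 0.19 SE, adjusted p = 8.55e-11 against wild-type). The ligand Wnt7b rose in culture and far further in tumors, with 17.4 and 10.1, 74.6 and 67.4 and 5874 to 10379 (median 8241) (log2 9.14 ± 0.22 SE, adjusted p = 8.72e-11). Nkd1, a further feedback inhibitor of the pathway chosen after its values were seen, had 74.8 and 63.5, 327 and 291 and 777 to 1409.7 (median 992) (log2 3.83 ± 0.21 SE, adjusted p = 5.43e-08).

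Receptors of the pathway were among the falls, with Lgr5 the only one of the list that rose. Lgr4, a receptor for R-spondins, which strengthen Wnt signals, had 25602 and 25956 in wild-type, 2318 and 2450.0 in mutant cells and 86.8 to 314 (median 115) in tumors (log2 -7.63 ± 0.40 SE, adjusted p = 3.59e-08). Its ligand Rspo2 had 10875 and 10943, 1375 and 1354 and 0 to 6.80 (median 2.84), so that both were lowest in tumors with no overlap (log2 -11.69 ± 0.69 SE, adjusted p = 9.53e-08 for Rspo2). Lgr5, a related receptor and stem cell marker, was kept as a rise but nearer to wild-type than in culture: 3.27 and 0 in wild-type, 152 and 138 in mutant cells and 14.0 to 46.5 (median 19.9) in tumors (log2 3.44 ± 0.57 SE, adjusted p = 0.00024 against wild-type and log2 -2.70 ± 0.57 SE, adjusted p = 0.00139 against the mutant line); under quantile normalisation its tumor difference was 0.93 with adjusted p = 0.17. Among 14 tested secreted antagonists and R-spondins 7 rose and 4 fell with a median of 1.03, but 5 rose and 5 fell with a median of -0.58 under quantile normalisation, and 3 rose and 4 fell of 9 with a median of -0.85 with a filter on the cultured libraries. Apcdd1, an inhibitor at the cell surface, rose from 25.4 and 21.7 through 457 and 449 to 1288 to 5574 (median 2670.2) (log2 6.74 ± 0.42 SE, adjusted p = 1.43e-07), and Dkk2, a secreted modulator, stood at 1.34 and 3.00 in wild-type, 2.31 and 0.997 in mutant cells and 217 to 905 (median 485) in tumors. Dkk2 passed the filter on low values only through the tumors, which favours its direction there.

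Hox genes, which set position along the body axis, kept every one of their culture differences. All 5 culture falls and all 7 culture rises were kept in tumors. All 7 kept rises came from the Hoxb cluster, of which 8 genes were tested, and the 5 kept falls came from Hoxa (3) and Hoxc (2). Hoxb9 had 2.75 and 4.33 in wild-type, 712 and 655 in mutant cells and 46.5 to 99.8 (median 54.0) in tumors, so that tumors lay between the cultured lines without overlap (log2 3.74 ± 0.30 SE, adjusted p = 9.04e-07 against wild-type and log2 -3.52 ± 0.30 SE, adjusted p = 1.98e-06 against the mutant line). Hoxb4 was listed at 0 in both wild-type libraries, with 23.2 and 16.1 in mutant cells and 62.1 to 109 (median 75.2) in tumors. Hoxb8 was also listed at 0 in wild-type, with 100 and 65.6 in mutant cells and 57.3 to 86.5 (median 65.2) in tumors. Hoxc13 stood at 643 and 581, 35.3 and 30.4 and 1.01 to 10.1 (median 3.62), a kept fall with no overlap (log2 -7.09 ± 0.63 SE, adjusted p = 2.27e-06). Hoxd9 rose in tumors and not in culture, with 1.34 and 0, 1.16 and 1.90 and 56.9 to 155 (median 97.6). Only the tumors brought Hoxd9 past the filter on low values, which favours this direction. Over 28 tested Hox genes 15 rose and 9 fell with a median of 1.98, but 12 rose and 13 fell with a median of -0.11 under quantile normalisation, and without the 9 genes at 0 in both wild-type libraries the median was -0.40. With a filter on the cultured libraries 7 of 18 rose and 9 fell, with a median of -0.29. Neighbouring Hox genes share a locus and are not independent, and the Hoxb4 and Hoxb8 values were picked after they were seen.

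Interferon-stimulated genes rose almost as a whole in tumors. Interferons are secreted in response to infection or nucleic acids, and cells answer through receptors and transcription factors that act on interferon-stimulated response elements. Of 35 tested genes 32 rose, with a median of 4.50. All 11 culture rises of 2-fold or more were kept, and 1 culture fall turned over. In mutant cells 13 rose and 2 fell without the fold limit, with a median of 0.45. Some culture rises rest on few estimated reads, such as Trim25, at 0 in both wild-type libraries and 1.17 and 1.02 in mutant cells. With a filter on the cultured libraries 30 of 33 rose, with a median of 4.19. The macrophage markers given below rose in the same tumors, and their part in these values was not tested.

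Promoters of 4 members are shown for the motif they share, a choice made after the values and matches were seen. RefSeq promoters (GRCm38.p6, 300 bases around the start) were at hand for 11761 of the 14965 tested genes and for 27 of the 35. The interferon-stimulated response element was searched on both strands as TTTC, any 2 bases and TTTC again, and 15 of 27 (55.6%) held it, against 3.09% of all promoters. The capitals mark the matches in Ifih1 (chr2:62646206-62646505, minus strand), Rsad2 (chr12:26456403-26456702, minus strand), Bst2 (chr8:71537423-71537722, minus strand) and Isg15 (chr4:156200769-156201068, minus strand), each written 5′ to 3′ along the gene.
Ifih1: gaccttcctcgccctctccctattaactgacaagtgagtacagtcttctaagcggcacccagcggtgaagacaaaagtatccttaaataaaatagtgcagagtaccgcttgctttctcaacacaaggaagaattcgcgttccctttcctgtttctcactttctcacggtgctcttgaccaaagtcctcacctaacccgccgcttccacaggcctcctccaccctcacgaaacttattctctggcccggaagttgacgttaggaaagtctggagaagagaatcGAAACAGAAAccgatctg
Rsad2: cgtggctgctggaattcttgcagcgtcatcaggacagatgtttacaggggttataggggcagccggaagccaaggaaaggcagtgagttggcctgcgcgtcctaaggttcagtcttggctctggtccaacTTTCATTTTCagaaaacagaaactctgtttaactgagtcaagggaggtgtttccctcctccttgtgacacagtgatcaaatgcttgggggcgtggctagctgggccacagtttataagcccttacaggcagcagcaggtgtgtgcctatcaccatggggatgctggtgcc
Bst2: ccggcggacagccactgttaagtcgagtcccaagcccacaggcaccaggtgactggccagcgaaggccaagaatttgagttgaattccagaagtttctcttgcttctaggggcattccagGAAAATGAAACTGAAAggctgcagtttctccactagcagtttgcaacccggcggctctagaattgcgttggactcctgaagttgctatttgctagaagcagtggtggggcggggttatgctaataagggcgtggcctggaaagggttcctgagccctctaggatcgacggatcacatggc
Isg15: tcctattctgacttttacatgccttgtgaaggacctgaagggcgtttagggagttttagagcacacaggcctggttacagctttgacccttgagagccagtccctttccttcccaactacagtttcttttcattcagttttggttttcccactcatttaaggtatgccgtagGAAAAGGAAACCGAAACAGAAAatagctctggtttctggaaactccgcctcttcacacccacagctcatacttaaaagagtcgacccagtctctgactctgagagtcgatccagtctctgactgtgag

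Ifih1, Rsad2 and Bst2 were culture rises that were kept, while Isg15 passed the test in tumors and not in culture. Ifih1, the sensor of double-stranded RNA also called MDA5, had 4.76 and 7.22 in wild-type, 35.8 and 40.8 in mutant cells and 595 to 1658 (median 948) in tumors (log2 7.13 ± 0.31 SE, adjusted p = 9.12e-09). Rsad2, the antiviral enzyme viperin, had 0 and 1.13, 4.63 and 3.80 and 505 to 1293 (median 811) (log2 9.15 ± 0.36 SE). It passed the filter on low values only through the tumors, which fixes its direction there, and its culture step rests on few estimated reads. Bst2, the membrane protein tetherin that holds back budding viruses, had 286 and 315, 1245 and 1305 and 20442 to 26099.9 (median 22439) (log2 6.24 ± 0.10 SE, adjusted p = 5.27e-12). In all 3 genes the groups were ordered wild-type, mutant cells, tumors with no overlap. Isg15, a ubiquitin-like modifier, had 54.7 and 46.4 in wild-type and 65.8 and 73.7 in mutant cells, a step that did not pass (0.46, adjusted p = 0.111), and 4370.1 to 7177 (median 5931) in tumors (log2 6.82 ± 0.17 SE, adjusted p = 9.9e-11).

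The other 3 motifs were searched in the same promoters, again as a description with no test. The SOX motif ACAATGG was in 1 of 19 cartilage matrix promoters, against 2.04% of all promoters, and the TCF/LEF motif CTTTGAT was in 1 of 21 Wnt promoters, against 2.59%. The retinoic acid half-site AGGTCA was in 14.6% of promoters of kept rises and in 24.7% (24 of 97) of promoters of falls turned over, against 12.7% of all. Among genes higher in tumors alone it was in 16.3%, and in the other classes in 9.09% to 12%. Each motif was searched on both strands, a match is not a bound site, and the AGGTCA letters are shared by sites of other nuclear receptors.

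Antigen presentation genes, which load peptides for T cells, followed: all 9 tested rose in tumors, with a median of 3.85, and all 5 culture rises were kept. Psmb8, a catalytic subunit of the immunoproteasome, had 14.7 and 11.6 in wild-type, 69.4 and 63.6 in mutant cells and 12947 to 18170.0 (median 16874) in tumors (log2 10.18 ± 0.14 SE, adjusted p = 2.71e-12). Nlrc5, the activator of class I genes, had 50.8 and 63.5, 531 and 589 and 2146 to 3424 (median 2513) (log2 5.49 ± 0.16 SE, adjusted p = 3.82e-10). Both genes rose in 2 steps with no overlap between groups.

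Cytokines and chemokines rose for 27 of 32 tested and fell for 2, and all 10 culture rises were kept, while both culture falls turned over. The median was 5.55, or 3.67 without the 8 genes at 0 in both wild-type libraries. Many members passed the filter on low values only through the tumors, and with a filter on the cultured libraries 14 of 19 rose and 2 fell, with a median of 3.39. Ccl8, a chemokine that draws monocytes and is one of these members, had 0 and 1.44 in wild-type and 13.9 and 6.64 in mutant cells. In tumors it stood at 3996 to 10983 (median 7786) (log2 12.23 ± 0.42 SE). Csf1, the growth factor of macrophages, was picked after its values were seen: it had 4745 and 4516, 12763 and 12661 and 15268 to 18200.2 (median 15835), and most of its step was already present in culture (log2 1.46 ± 0.10 SE, adjusted p = 3.54e-06 in mutant cells and log2 1.80 ± 0.09 SE, adjusted p = 1.51e-08 in tumors). Cxcl12, a chemokine of stromal cells that was likewise picked, did the opposite, with 28022 and 28268, 31237 and 31748 and 185 to 701 (median 390.2) (log2 -6.26 ± 0.45 SE, adjusted p = 4.57e-07).

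Summed markers of macrophages, endothelium, NK cells and lymphocytes, neutrophils and mast cells, red cells and skeletal muscle were above both cultured lines in every tumor. The sums of keratinocyte, pericyte, Schwann cell and mammary markers were not. Most genes of such lists passed the filter on low values only through the tumors, which fixes their direction. Their sums are thus given, with a count of rises for pericytes alone. The summed level of 30 macrophage and myeloid markers was 356 to 363 in wild-type cells, 1350 to 1380 in mutant cells and 430253 to 604886 in tumors, where it made up 1.25% to 1.51% of the whole signal. Only 9 of the 30 passed a filter on the cultured libraries. Csf1r, the receptor for Csf1 on macrophages, had 9.35 and 2.89 in wild-type, 16.8 and 15.2 in mutant cells and 17798 to 24779 (median 20151) in tumors. C1qa, a chain of complement C1q, was listed at 0 in all 4 cultured libraries and ranged from 46784 to 94129 (median 76966) in tumors. C1qb, C1qc and Tyrobp, an adaptor of myeloid receptors, led the rises seen in tumors alone beside it, and reached 38656 to 68806, 37729 to 63006 and 8379.6 to 14884.

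The other cell types had lower sums. Endothelial markers summed to 4869 to 4925 in wild-type cells, 4520 to 4759 in mutant cells and 31570 to 48889 in tumors, and NK cell and lymphocyte markers to at most 24.5, at least 40.5 and 10139 to 28424 in the same order. Keratinocyte markers ranged from 407 to 36129 between tumors against 638 to 722 in wild-type and 376 to 426 in mutant cells, and tumors 4 (596) and 6 (407) lay below wild-type. Skeletal muscle markers ranged from 1690 to 36874 with the highest sum in tumor 6, against 333 to 377 in wild-type and 816 to 827 in mutant cells. Mammary markers ranged from 870 to 27254 with the highest sum in tumor 5, against 214 to 215 in wild-type and 830 to 871 in mutant cells. Tumor 2 (870) thus lay within the range of the mutant line. Neutrophil and mast cell markers reached 2733 to 8607 in tumors, against 306 to 385 in wild-type and 454 to 533 in mutant cells. Red cell markers reached 7378 to 17483, against 20.9 to 31.2 and 842 to 894. Pericyte markers summed to 23182 to 31403 in tumors, below the 48603 to 49163 of wild-type and the 39950 to 42316 of mutant cells. Their members did not move together: 6 of 9 rose and 3 fell, against 44.1% and 35.7% of all genes. Rgs5, the defining pericyte marker, had 1.34 and 1.44 in wild-type, 16.2 and 15.2 in mutant cells and 51.6 to 279 (median 105) in tumors. Schwann cell markers summed to 1712 to 3321 in tumors, below the 3999 to 4185 of wild-type and above the 921 to 960 of mutant cells. Cd3e, the defining marker of T cells, was 0 in the cultured lines and between 0 and 0.670 in tumors. The 5 markers of the line itself were present in every tumor and moved in both directions. Prrx1, a mesenchymal factor, had 26431 and 26495 in wild-type, 26964 and 28099 in mutant cells and 4886 to 7183 (median 5370.1) in tumors (log2 -2.25 ± 0.13 SE, adjusted p = 7.6e-08), and Col1a1, the main collagen of connective tissue, 260471 and 253556, 355824 and 314927 and 65865 to 88626 (median 68427) (log2 -1.83 ± 0.13 SE, adjusted p = 3.45e-07). Twist1, another mesenchymal factor, was higher in tumors, with 688 and 723, 1308 and 1257 and 1548 to 2147 (median 1907) (log2 1.39 ± 0.13 SE, adjusted p = 3.55e-06), as was Thy1 above. Pdgfra, a receptor of mesenchymal cells, had 6344 and 6576, 5722 and 5779.7 and 3974 to 6590.2 (median 4888) with overlap between tumors and wild-type (log2 -0.41 ± 0.16 SE, adjusted p = 0.0372), and its call was lost without wild-type library 1 or 2 (adjusted p = 0.113 and 0.157), without either mutant library, and without tumor 2, 3 or 5.

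Differences in tumors also moved with transcript length. Among the 13486 genes with a GENCODE M21 length, the median tumor difference from wild-type was 0.78 for transcripts under 1000 bases and -0.93 for those over 6000, while in mutant cells it was at most 0.07 in any length class. Tumor 6 was shallower, at 0.45 and -0.61. Removing the trend, an alternative chosen after the data were seen, left 615 of 982 culture falls and 1170 of 1537 culture rises kept. Whole counts among values of 1 to 20 estimated reads made up 76.3% to 78.8% in the cultured libraries and 84.7% to 86.6% in tumors, so tumors against either cultured line crosses a line that the labels do not explain.

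**Figure D4:**
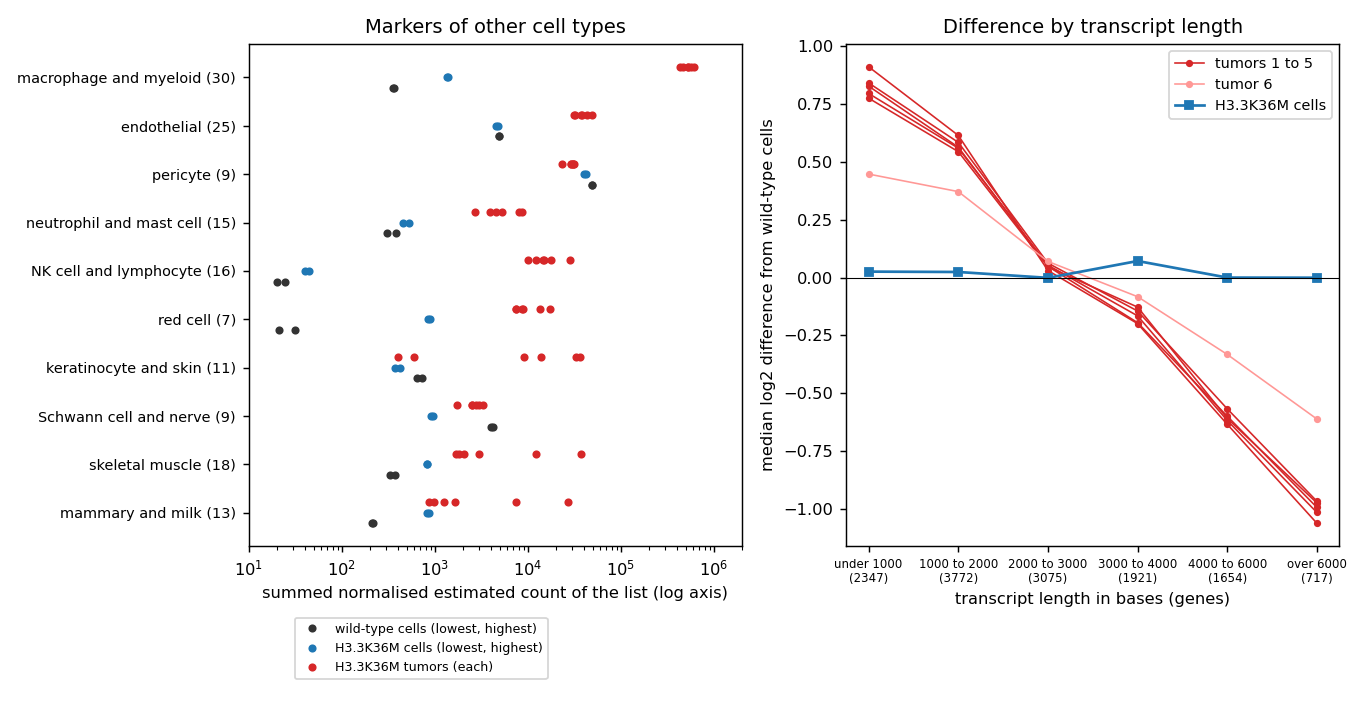
Left, the summed normalised estimated count of marker lists of other cell types (number of genes) in wild-type cells, H3.3K36M cells and each tumor, on a log axis. Right, the median log2 difference from wild-type cells by transcript length for each tumor and for H3.3K36M cells: tumors fall from 0.78 to -0.93 in their mean, tumor 6 is shallower, and the cultured line is flat.

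Lost rises were led by genes that were high in the cultured mutant line and near 0 in the other groups. Pcdh11x, a protocadherin of cell adhesion, had 4.01 and 2.89 in wild-type, 519 and 500.4 in mutant cells and 0 to 2.71 (median 1.40) in tumors (log2 -7.77 ± 0.49 SE, adjusted p = 2.07e-07 against the mutant line). Apob, the main protein of low-density lipoprotein, had 1.34 and 0, 232 and 245 and 0 to 2.01 (median 0) (log2 -7.64 ± 0.57 SE, adjusted p = 8.16e-07). Crym, a binder of thyroid hormone, had 4.01 and 1.44, 339 and 309 and 0 to 3.04 (median 1.87), and Asxl3, a chromatin protein of the Polycomb-linked Asx family, 1.34 and 1.44, 239 and 283 and 0 to 1.44 (median 1.24). In these 4 genes every tumor was below both mutant libraries and near the wild-type values, which stand for a few estimated reads; under quantile normalisation all 4 fell below wild-type, and with the length trend removed Asxl3 was above it (log2 1.12).

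Whsc1 and Mtap were lost rises at high levels. Whsc1, the H3K36 methyltransferase Nsd2, had 2789.7 and 2771 in wild-type, 5704 and 5740.2 in mutant cells and 2777 to 4398 (median 3276) in tumors. Every tumor was below the mutant line (log2 -0.77 ± 0.14 SE, adjusted p = 0.000475), and the tumor range overlapped the wild-type values (log2 0.27 ± 0.14 SE, adjusted p = 0.0946); without tumor 6 or tumor 4 this difference passed (adjusted p = 0.036 and 0.0347). Mtap, an enzyme of methionine salvage whose gene neighbours Cdkn2a, had 5502 and 5429, 14908 and 15558 and 7844 to 12816 (median 9366), with tumors between the cultured lines (log2 0.80 ± 0.15 SE, adjusted p = 0.000574 against wild-type).

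Lost falls included genes known from immune cells. Dock8, an exchange factor needed for the movement of leukocytes, had 1047 and 1019.9 in wild-type, 71.0 and 63.6 in mutant cells and 1416 to 2781 (median 1647) in tumors (log2 4.68 ± 0.22 SE, adjusted p = 2.03e-08 against the mutant line). Traf3ip3, a TRAF3-binding protein of lymphoid cells, had 107 and 126, 7.22 and 2.43 and 127 to 348 (median 204). Serpina3n, a secreted protease inhibitor, had 258 and 204, 2.37 and 4.87 and 162 to 749 (median 374), and Lad1, an anchoring protein of basement membranes, 103 and 137, 1.73 and 0 and 16.1 to 169.6 (median 80.8). Tumors lay above the mutant cells without overlap in all 4, and within 2-fold of the wild-type mean on average. The myeloid and lymphocyte sums above were higher in the same tumors, and their part in these returns was not tested. Lad1 did not return in every tumor: it stood at 24.3 in tumor 4 and 16.1 in tumor 6, well below wild-type. The keratinocyte sums were also lowest in tumors 4 (596) and 6 (407), and the part of such cells in Lad1 was not tested.

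Falls that turned over were low in the mutant line and highest in tumors. Trf, the iron carrier transferrin, had 40.1 and 30.3 in wild-type, 5.20 and 1.90 in mutant cells and 5459 to 12081 (median 6970.4) in tumors (log2 7.68 ± 0.32 SE, adjusted p = 5.38e-09). Rassf4, a Ras-association protein, had 104 and 70.7, 6.36 and 7.59 and 2130.2 to 3180.3 (median 2473) (log2 4.85 ± 0.18 SE, adjusted p = 2.28e-09), and Camk1g, a calcium/calmodulin-dependent kinase, 115 and 105, 2.31 and 1.90 and 937 to 2339 (median 1957) (log2 3.98 ± 0.29 SE, adjusted p = 4.95e-07). Cd200r1, an inhibitory receptor of myeloid cells, had 8.02 and 10.4, 0 and 0 and 76.8 to 135 (median 107) (log2 3.38 ± 0.28 SE). It passed the filter on low values only through the tumors, which favours its direction there. The groups did not overlap in any of these 4 genes, and the part of host cells was not tested.

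Rises that turned over held 2 regulators of BMP signals, which steer bone and cartilage formation. Grem1, a secreted BMP antagonist, had 471 and 540.0 in wild-type, 5317 and 5419 in mutant cells and 28.9 to 97.1 (median 77) in tumors (log2 -2.90 ± 0.38 SE, adjusted p = 4.72e-05). Bmper, a BMP-binding protein, had 254 and 231, 1963 and 1987 and 14.2 to 76.2 (median 26.6) (log2 -3.04 ± 0.59 SE, adjusted p = 0.000727). Vnn1, the enzyme pantetheinase, had 114 and 107, 1218 and 1261 and 7.08 to 14.4 (median 12.3) (log2 -3.17 ± 0.26 SE, adjusted p = 1.33e-06), and Adamts6, a secreted metalloproteinase, 94.3 and 101, 1480.4 and 1523 and 1.81 to 25.2 (median 8.40) (log2 -3.47 ± 0.64 SE, adjusted p = 0.000534). In all 4 genes mutant cells were highest and tumors lowest, with no overlap.

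A further 2698 genes were at least 2-fold higher and 2405 at least 2-fold lower in tumors while the cultured mutant line lay within 2-fold of wild-type. The larger number of higher genes depended on the filter on low values. With a filter on the cultured libraries 1822 were higher and 2408 lower, and with separate fits 1820 and 2385. Among the higher ones with at least 100 in the mean of wild-type cells, the leaders were Ifi27l2a, an interferon-induced gene, Cfp, the complement protein properdin, Ptpn6, a phosphatase of blood cells, and Cd14, a co-receptor of myeloid cells. Ifi27l2a went from 259 and 279 in wild-type and 409.7 and 429 in mutant cells to 25214 to 45214 (median 31802) in tumors (log2 6.91 ± 0.18 SE, adjusted p = 1.33e-10), and Ptpn6 from 124 and 123 and 74.6 and 66.4 to 5305 to 6608 (median 5958) (log2 5.59 ± 0.10 SE, adjusted p = 8.83e-12). Of the 4 lower ones Lox, the enzyme that crosslinks collagen and elastin, was the most abundant. Its values were 114910.4 and 112346 in wild-type, 90774 and 88803 in mutant cells and 317 to 709 (median 423) in tumors (log2 -8.00 ± 0.28 SE, adjusted p = 1.38e-09). Svep1, a large matrix protein, had 12787 and 12932, 8459 and 7995 and 20.2 to 226 (median 142) (log2 -7.00 ± 0.80 SE, adjusted p = 1.53e-05), and Gprin3 395 and 439, 209 and 219 and 0 to 1.81 (median 1.02). Tgoln2 was listed at 0 in all tumors, but it has a near-identical copy in Tgoln1, so its value is uncertain.

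Mitosis genes and several groups of metabolic genes moved in tumors, while DNA replication genes as a list did not move one way. Of 28 tested mitosis genes 22 fell and 1 rose, with a median of -1.42, and of 28 genes of cholesterol and fatty acid synthesis 26 fell and 2 rose, with a median of -2.02. Of 30 DNA replication and S phase genes 15 rose in mutant cells, with a median of 0.53, and in tumors 12 rose and 9 fell, with a median of -0.07 that was 0.01 under upper-quartile scaling. Ect2, an exchange factor of cell division, had 2658 and 2502 in wild-type, 3176 and 3258 in mutant cells and 244 to 678 (median 353) in tumors (log2 -2.82 ± 0.30 SE, adjusted p = 9.12e-06). Idi1, an enzyme of the cholesterol pathway, had 8535 and 8947, 6276 and 6874 and 694 to 1446 (median 937) (log2 -3.23 ± 0.23 SE, adjusted p = 3.84e-07). Of 30 glycolysis and hypoxia genes 21 rose and 2 fell, with a median of 1.15, and Slc16a3, the lactate exporter, had 36.1 and 49.1, 39.3 and 49.4 and 609 to 1934 (median 1469) (log2 4.93 ± 0.37 SE, adjusted p = 5.81e-07). Of 41 ribosomal protein genes 40 rose, with a median of 1.59, and their transcripts are short, with a median length of 824 bases against 2166 over all genes; with the length trend removed 38 rose and the median was 0.93. Ribosomal protein genes have many processed copies, so single values are uncertain.

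The list medians set these groups beside each other. Proteoglycans and matricellular proteins fell for 15 of 22 tested and rose for 6 (median -1.80), and 7 of 8 culture falls and 3 of 4 culture rises were kept. BMP and TGF-beta genes fell for 16 of 34 and rose for 12 (median -0.62, or -1.28 without 5 genes at 0 in both wild-type libraries), and 6 of 7 culture falls and 1 of 2 rises were kept. Tgfb2, a TGF-beta ligand, had 3433 and 3487 in wild-type, 299 and 294 in mutant cells and 46.5 to 83.2 (median 51.8) in tumors (log2 -5.85 ± 0.24 SE, adjusted p = 5.18e-09). Hedgehog, Notch and FGF genes kept 6 of 7 falls and 6 of 8 rises, and mesenchymal patterning factors 7 of 9 falls and 3 of 7 rises. Fat genes kept 5 of 8 falls, bone genes 3 of 6 falls and 4 of 5 rises, and smooth muscle genes 5 of 6 rises. The background for these shares is 65.7% of falls and 74.5% of rises over all genes. With a filter on the cultured libraries that background was 667 of 973 falls and 1046 of 1492 rises.

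**Figure D5:**
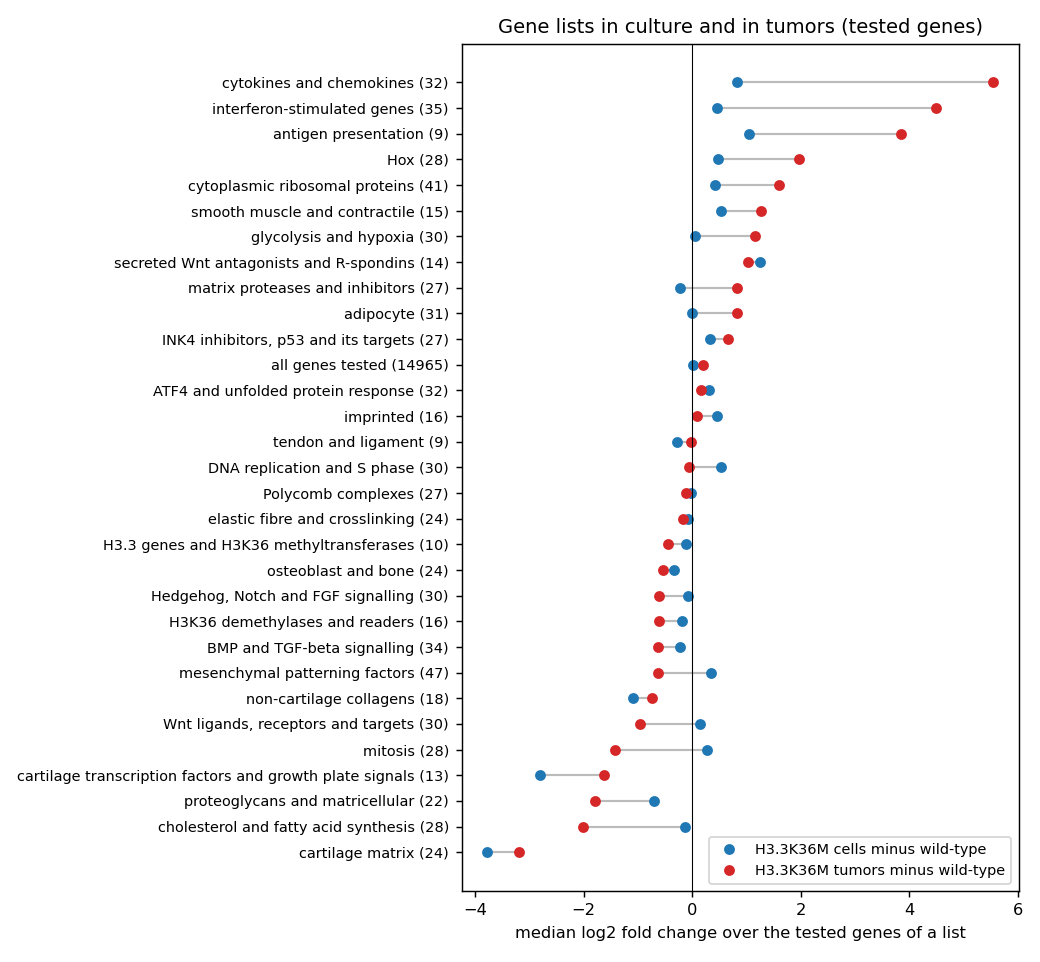
Median log2 difference from wild-type cells over the tested genes of each list (number of genes in brackets), in H3.3K36M cells and in tumors. Cartilage matrix is low in both (-3.78 and -3.19), cytokines, interferon-stimulated and antigen presentation genes are far higher in tumors than in culture, and mitosis and cholesterol genes are low in tumors alone; the Hox and secreted Wnt antagonist medians change sign under quantile normalisation and with a filter on the cultured libraries.

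The H3.3 genes and H3K36 methyltransferases themselves fell more often than they rose. Of 10 tested 6 fell and 1 rose in tumors, with a median of -0.44, against 35.7% and 44.1% of all genes. At 2-fold or more 2 fell and 0 rose, against 21.9% and 30.1%. Ash1l, first of the list by tumor difference, had 4596 and 4666 in wild-type, 4180 and 4240 in mutant cells and 796 to 1668 (median 874) in tumors (log2 -2.27 ± 0.24 SE, adjusted p = 7.89e-06). H3f3a, which encodes H3.3, had 22995 and 22831 in wild-type, 12753 and 13498 in mutant cells and 12346 to 14493 (median 13922) in tumors (log2 -0.73 ± 0.08 SE, adjusted p = 1.48e-05). H3f3b, the second H3.3 gene, had 33747 and 32592, 26665 and 27826 and 42024 to 49923 (median 46159.7) (log2 0.47 ± 0.09 SE, adjusted p = 0.000939), and its direction changed under quantile normalisation (log2 -0.22). Gene values do not separate tagged from native H3.3 or mutant from wild-type transcripts, so they do not check the labels. Setd2, the enzyme of H3K36 trimethylation, had 4839 and 4921, 4011 and 4186 and 1374 to 2232 (median 1635), below both cultured lines (log2 -1.54 ± 0.15 SE, adjusted p = 3.9e-06), and Nsd1, an enzyme of H3K36 dimethylation, 5663 and 5719.6, 5830.1 and 6171 and 3135 to 4348 (median 3583) (log2 -0.64 ± 0.11 SE, adjusted p = 0.000294). Ezh2, the methyltransferase of Polycomb, spread widely in tumors, 668 to 2071 against 1705 and 1631 in wild-type, and did not pass (log2 -0.69 ± 0.33 SE, adjusted p = 0.0733), while without tumor 6 it fell (log2 -0.89, adjusted p = 0.00057).

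The cell cycle inhibitors beside Mtap were almost silent in culture. Cdkn2a, which encodes p16 and p19Arf, had 0 and 1.44 in wild-type, 1.16 and 0 in mutant cells and 33.3 to 109.7 (median 89.5) in tumors (log2 5.65 ± 0.53 SE). Cdkn2b, which encodes p15, had 5.34 and 11.6, 2.89 and 0 and 46.9 to 77.9 (median 56.3) (log2 2.71 ± 0.48 SE, or 0.71 under quantile normalisation). For both genes every tumor was above all cultured libraries. Both passed the filter on low values only through the tumors, which favours this direction. Igf2, an imprinted growth factor, had 60.1 and 40.5, 424 and 413 and 231 to 3732 (median 385) (log2 3.76 ± 1.03 SE, adjusted p = 0.00623), and without wild-type library 2 it did not pass (adjusted p = 0.0521). The host cell markers above are present in the same tumors, so which cells hold the transcripts cannot be told apart.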

How the data were processed

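RNA was extracted with Trizol and made into TruSeq libraries, per the labels' protocols. Bowtie 1.0.0, RSEM 1.2.12 and mm9 are named in the submitters' processing notes. The deposited signal values are RSEM estimated counts per gene that the authors divided by a factor for each library (median normalisation, as the name of the deposited table states), for 12 libraries in 1 table, of which 10 were fitted. They are not raw counts, so no count model was used. Values were tested as log2(value + 1) with limma 3.58.1 in R 4.3.3, in 1 fit of 10 libraries with 3 contrasts, 7 residual degrees of freedom, Benjamini-Hochberg adjustment and a threshold of 0.05. The procedure was tested on simulated data. Tables and figures used Python 3.11.15, pandas 2.3.3, numpy 2.4.6 and matplotlib 3.10.9.

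Genes needed a value of at least 10 in at least 2 libraries. Named genes were the top 4 of each class, the top 3 of each pathway list by tumor difference, and a fixed set of histone, cartilage, Wnt and cell cycle genes; others named from a list were picked after their values were seen. Some results are not reported here. The members and lists were chosen with earlier results of these data known. Same-numbered libraries were correlated between -0.0618 and 0.0335 in their deviations, so numbers do not pair the samples. No 2 libraries were identical (0 pairs). Alternatives were another pseudocount, filters, scalings, fits, weights, fold limits, a replicate block and each library left out.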

Additional observations from a re-analysis of the deposited data

Results flagged for a closer look

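In 35 of 152 named genes 1 tumor stood far from the other 5, measured by its gap to the nearest tumor over the whole range; chance flags about 1 in 20 such groups. Tumor 6 was the highest in 29 of the 35, and the cause was not tested.

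Among chromatin genes tumor 6 was highest for Ash1l (1668, nearest tumor 935), Whsc1l1 (2609), Whsc1 (4398), Kdm4c (608), Psip1 (2255), Pcgf3 (591), Phc3 (1531) and Ezh2 (2071, nearest tumor 1075). Among genes of the replication, mitosis, p53, glycolysis, cholesterol and imprinted lists it was highest for Ccne2 (234), Ect2 (678), Trp53inp1 (748), Slc2a3 (389), Stard4 (287) and Grb10 (2944).

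Among matrix, mesenchymal and signalling genes it was highest for Col11a1 (84.9), Ogn (529.9), Cald1 (6019.9), Thbs1 (537), Sparcl1 (5311), Mmp9 (8234, nearest tumor 976), Angptl1 (14.9), Lgr4 (314), Hoxb9 (99.8) and Prrx1 (7183). Markers of other cells were highest there too, with Ptprc of leukocytes at 5592, Cdh5 of endothelium at 22893, Rgs5 of pericytes at 279, Ckm of muscle at 3705 and Dock8 at 2781.

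The other flagged tumors were tumor 5 for Trf (12081), G0s2 (157) and Lgr5 (46.5), tumor 4 for Sdf2l1 (3980.3), tumor 1 for Apob (2.01, with all other tumors at 0) and tumor 2 for Asxl3, whose value was 0.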

How the results depend on the processing

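The main counts were 663 falls and 1303 rises kept, 179 and 296 lost, and 133 and 70 turned over. With a pseudocount of 10, 795 rises were kept and 73 falls turned over. With no filter 555 rises were lost. Under quantile normalisation 681 rises were kept, 203 falls and 181 rises turned over, and 43.9% of 2-fold calls were higher against 57.9% as reported; a filter on the cultured libraries gave 48.1%. That filter also gave 1046 rises kept, and 1822 genes higher and 2408 lower in tumors alone. Group weights gave 124 rises turned over, and the replicate block 116; same-numbered libraries shared only a number. A fold limit of 1.5 gave 1039 falls kept, 270 falls lost, and 231 falls and 166 rises turned over. A limit of 4 gave 2834 genes higher and 1384 lower in tumors, 289 falls and 744 rises kept, 38 falls and 16 rises turned over, and 1063 lower in tumors alone.

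Leaving out each library gave 4242 to 4679 genes higher and 3073 to 3432 lower, 483 to 711 falls and 1058 to 1396 rises kept, 144 to 204 falls and 147 to 338 rises lost, 106 to 153 falls and 34 to 98 rises turned over, and 2530 to 2879 higher and 2317 to 2537 lower in tumors alone. Of 2834 alternative values over 152 named genes, 2795 kept direction and call, 19 gained a call, 18 lost it and 2 reversed: H3f3b under quantile normalisation (-0.22) and Asxl3 with the length trend removed (1.12, an alternative chosen after seeing the data). The causes were not tested. With the filter on the cultured libraries only 120 of the 152 named genes were left. The others passed the filter on low values only with the tumors, and the 2834 hold no value for them in that setting. Low values limit the folds of genes near 0 in wild-type cells.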
